A study of Mus musculus with 6 samples.

Results

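The genes described here are Rbm39, Epb41l1, Mapre1, Rprd1b, Cep250, Cnbd2, Myh7b and Commd7, which lie after Pofut1 in the gene order of mouse chromosome 2. They were chosen because at least 1 probe set of each sets NestinCre control brain apart from both groups with floxed Pofut1. All their probe sets with a single gene symbol in the platform annotation were taken, which gave 29 of the 34945 such probe sets and 8 of 18193 genes. The question was whether the probe sets of a gene agree.

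Whole brains of C57/Bl6 mice aged 2 months were profiled on 6 one-colour Affymetrix arrays, in 3 groups of 2. NestinCre control mice carried the Nestin-Cre transgene and wild type Pofut1. Flox control mice carried Pofut1 flox/flox and no Cre, and knockout mice carried Nestin-Cre with Pofut1 flox/flox. Flox control and knockout are called the floxed groups below, with 4 arrays in all. Nestin-Cre is active in neural progenitors and passed on to neurons and glia, so whole brain also holds cells in which the floxed copies are not cut. The labels do not say how the mice were bred or how each array relates to an animal. The p-values given here therefore reflect only how far these samples spread, and part of that spread may be technical. The floxed copies of Pofut1 and anything else that the floxed mice share cannot be told apart in this design.

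On an array of this kind a gene is read by one or more probe sets, each a group of short probes designed from a transcript sequence and mostly lying near the 3′ end. Different probe sets of a gene can read different ends, exons or introns of its transcripts, so each reports on its own stretch of RNA. Genes close to each other on a chromosome are usually inherited together, and the 8 genes were not chosen for a shared function. Rbm39 and Rprd1b act in splicing and transcription, Mapre1 and Cep250 at microtubules and the centrosome, Epb41l1 and Myh7b at the membrane skeleton and in myosin filaments, Commd7 in NF-kappaB regulation and Cnbd2 as a protein with a cyclic nucleotide binding domain.

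The values are log2 of the deposited intensity, and a log2 difference of 1 is a doubling. NestinCre control was set against the floxed groups as the NestinCre control mean minus the mean of both floxed groups. Because the genes were chosen on this difference, it is given as a description with no test. A probe set is called not overlapping where both NestinCre control arrays lie above, or both below, all 4 floxed arrays. This held for 17 of the 29 probe sets, 9 with NestinCre control higher and 8 with it lower, against 8.99% of all 45037 probe sets (3.76% higher and 5.23% lower). The other 12 overlapped. Of the 6 genes with more than 1 probe set, Cnbd2 alone had no overlapping probe set, and its probe sets pointed in opposite directions.

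**Figure D1:**
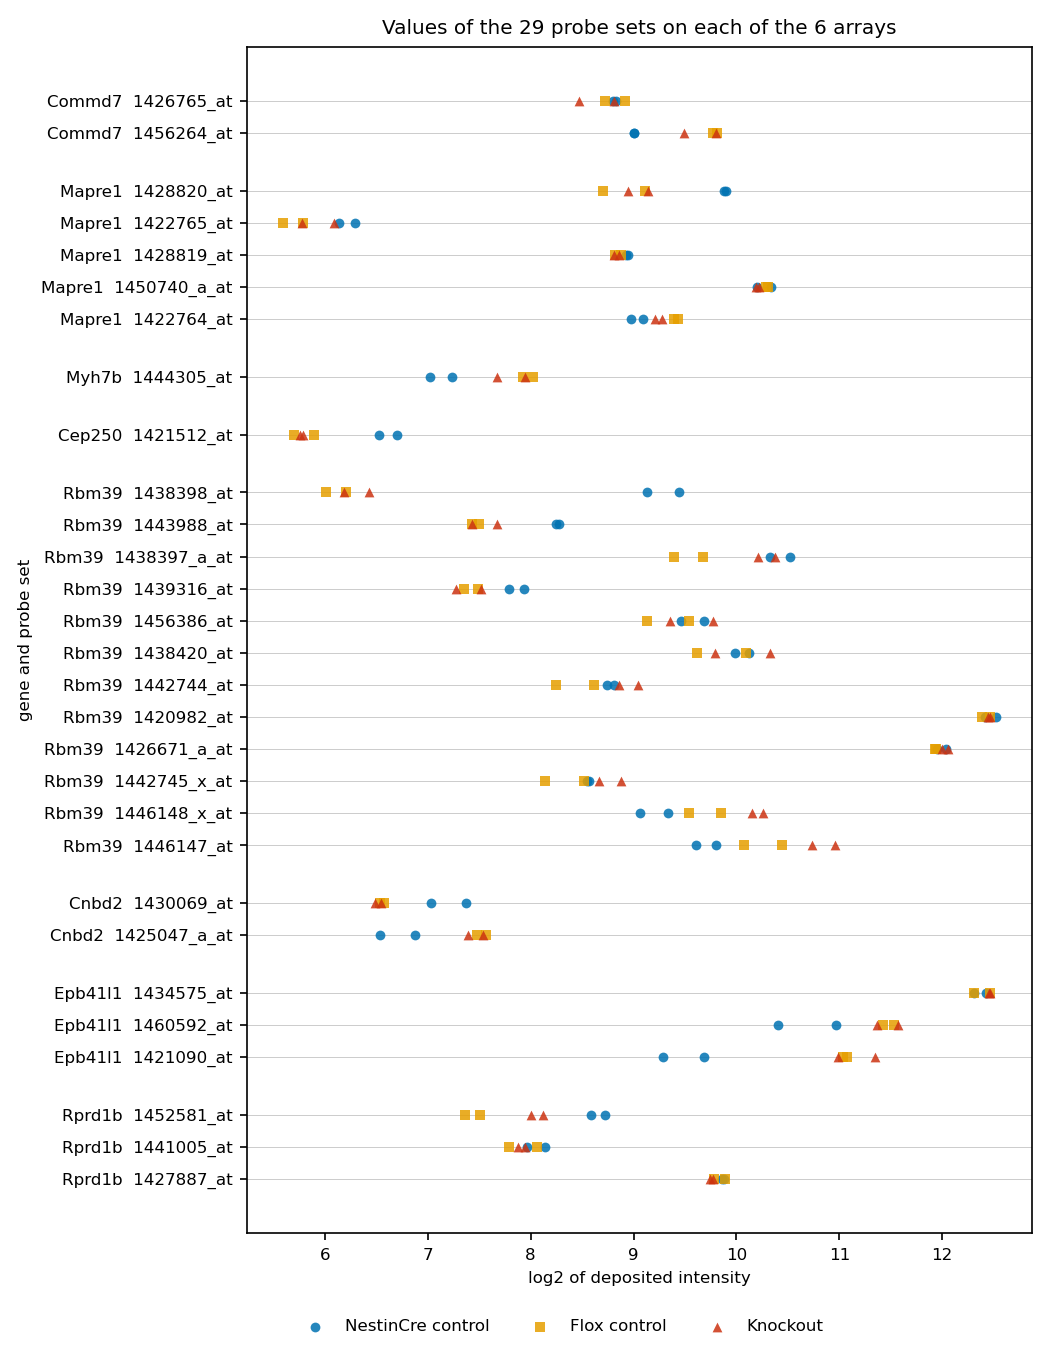
Log2 of the deposited intensity (x axis) for each of the 29 probe sets (rows, grouped by gene in chromosome order) on 2 NestinCre control, 2 Flox control and 2 knockout arrays, each point being 1 array. The largest separation is in Rbm39 probe set 1438398_at, while other rows of the same gene overlap, and levels cannot be compared between rows because each probe set has its own probes.

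All arrays had nearly the same distribution, with medians of 7.32 to 7.36 on the log2 scale. Arrays of the same group correlated at 0.993 to 0.995 and arrays of different groups at 0.985 to 0.995. All 14 measured brain markers were above the median of all probe sets on every array. Levels of Xist and the Y-linked Eif2s3y showed a male brain for NestinCre control replicate 2 and for knockout replicate 1, and female brains otherwise. Pofut1 did not separate the groups in the way the 8 genes do. Its probe set 1443881_at read 9.84 and 9.77 in NestinCre control, 9.95 and 9.81 in Flox control and 9.25 and 9.44 in knockout, so that only knockout was low. Against Flox control this was a log2 difference of -0.54 (SE 0.09), which did not pass over all probe sets (limma adjusted p = 0.142). None of the 3 Pofut1 probe sets set NestinCre control apart from all floxed arrays.

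Rbm39, an RNA-binding splicing factor that is also a transcriptional coactivator, had 12 probe sets, and they disagreed the most. Probe set 1438398_at read 9.45 and 9.13 in NestinCre control, 6.01 and 6.20 in Flox control and 6.43 and 6.19 in knockout. Both NestinCre control arrays were thus far above all floxed arrays, with a gap of 2.70 between the nearest arrays of either side. The mean difference was 3.08 (SE 0.13), or 8.46-fold. On the floxed arrays this signal ranked between the 25.8th and 34.0th percentile of all probe sets of the array, against the 72.7th to 76.6th in NestinCre control. Background correction can compress differences between dim signals, and detection calls were not used here.

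Another pair of Rbm39 probe sets was higher in NestinCre control by less. Probe set 1443988_at read 8.28 and 8.24 in NestinCre control, 7.43 and 7.50 in Flox control and 7.67 and 7.42 in knockout, a difference of 0.75 (SE 0.08). Probe set 1439316_at read 7.79 and 7.93, then 7.35 and 7.49, then 7.52 and 7.27 in the same order of groups, a difference of 0.45 (SE 0.10). In both, the 4 floxed arrays lay close together below the NestinCre control arrays.

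A further pair of Rbm39 probe sets ran the other way. Probe set 1446147_at read 9.80 and 9.61 in NestinCre control, 10.07 and 10.44 in Flox control and 10.96 and 10.73 in knockout, a difference of -0.85 (SE 0.14). Probe set 1446148_x_at, designed from the same source sequence, read 9.34 and 9.06, then 9.54 and 9.85, then 10.26 and 10.15, a difference of -0.75 (SE 0.13). For both, the groups stood in the order NestinCre control, Flox control, knockout without overlap. The suffix _x_at marks a set in which some probes may also match other transcripts.

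The remaining 7 Rbm39 probe sets overlapped. The strongest signals of the gene came from 1420982_at and 1426671_a_at, which differed by 0.03 (SE 0.06) and 0.01 (SE 0.05). On 1420982_at the intensities were 5470 and 5900 in NestinCre control, 5647 and 5354 in Flox control and 5659 and 5565 in knockout. The signal of this probe set thus overlapped between the groups, while that of 1438398_at did not. Probe set 1438397_a_at differed by 0.51 (SE 0.11), but here knockout stood with NestinCre control, at 10.37 and 10.21 against 10.52 and 10.33, and Flox control alone was lower at 9.39 and 9.68. The other 4, which were 1438420_at, 1442744_at, 1442745_x_at and 1456386_at, differed by 0.10, 0.09, 0.01 and 0.12.

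Epb41l1 encodes a protein that ties membrane proteins of neurons to the spectrin and actin skeleton. Its probe set 1421090_at read 9.28 and 9.68 in NestinCre control, 11.07 and 11.03 in Flox control and 10.99 and 11.34 in knockout. NestinCre control was lower by 1.31 between the nearest arrays, and the mean difference was -1.63 (SE 0.15), so that the floxed groups stood 3.09-fold higher. Probe set 1460592_at pointed the same way, with 10.41 and 10.97 in NestinCre control, 11.53 and 11.42 in Flox control and 11.37 and 11.57 in knockout. Its difference was -0.78 (SE 0.17), and the NestinCre control arrays differed from each other more than the floxed arrays did. Without NestinCre control replicate 1 it was -0.50 and without replicate 2 it was -1.07. The third probe set, 1434575_at, had the strongest signal of the gene and overlapped, at 12.31 and 12.43 against 12.31 to 12.47 in the floxed groups, a difference of -0.05 (SE 0.07).

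Mapre1 encodes EB1, which binds the growing ends of microtubules, and was read by 5 probe sets. Probe set 1428820_at read 9.88 and 9.89 in NestinCre control, 8.71 and 9.11 in Flox control and 9.14 and 8.95 in knockout, a difference of 0.91 (SE 0.13), or 1.88-fold. Probe set 1422764_at was lower in NestinCre control, with 8.97 and 9.09 against 9.40 and 9.44 in Flox control and 9.20 and 9.27 in knockout, a difference of -0.29 (SE 0.06). Thus the gene had non-overlapping probe sets in opposite directions. The dim probe set 1422765_at (difference 0.40, SE 0.12) and 1428819_at (0.09, SE 0.05) were higher in NestinCre control with gaps of only 0.05 and 0.04 between the nearest arrays. The probe set with the strongest signal, 1450740_a_at, overlapped at a difference of 0.01 (SE 0.06).

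Rprd1b, whose product binds the C-terminal domain of RNA polymerase II, had 1 of 3 probe sets apart. Probe set 1452581_at had intensities of 385 and 424 in NestinCre control, 164 and 182 in Flox control and 257 and 278 in knockout. The 3 groups did not overlap, with knockout between the controls, and the mean log2 difference from the floxed groups was 0.91 (SE 0.08). Probe sets 1427887_at and 1441005_at differed by 0.07 (SE 0.05) and 0.14 (SE 0.10) and overlapped.

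Commd7, a COMM domain protein that acts on NF-kappaB, also split. Probe set 1456264_at had intensities of 513 and 512 in NestinCre control, 899.9 and 872 in Flox control and 894 and 721 in knockout, a log2 difference of -0.72 (SE 0.10). Probe set 1426765_at differed by 0.09 (SE 0.12) and overlapped. Cnbd2, known from sperm, was dim in brain. Its probe set 1425047_a_at read 6.88 and 6.53 in NestinCre control against 7.39 to 7.57 on the floxed arrays, a difference of -0.79 (SE 0.11). Its other probe set, 1430069_at, read 7.03 and 7.37 against 6.49 to 6.58, a difference of 0.66 (SE 0.11). Each separated the groups, in opposite directions.

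Cep250, which holds the centrioles of a centrosome together, and Myh7b, a myosin heavy chain of slow and cardiac muscle type, had 1 probe set each, so agreement cannot be asked. Cep250 probe set 1421512_at read 6.70 and 6.52 in NestinCre control, 5.89 and 5.70 in Flox control and 5.75 and 5.79 in knockout, a difference of 0.83 (SE 0.09). All of these values were below the median of all probe sets. Myh7b probe set 1444305_at read 7.23 and 7.02 in NestinCre control, 7.92 and 8.02 in Flox control and 7.67 and 7.94 in knockout, a difference of -0.76 (SE 0.11). Myh7b had the smallest leading gap of the 8 genes, 0.44, and the neighbour Zcchc3, which was not among the genes chosen, had a gap of 0.39.

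**Figure D2:**
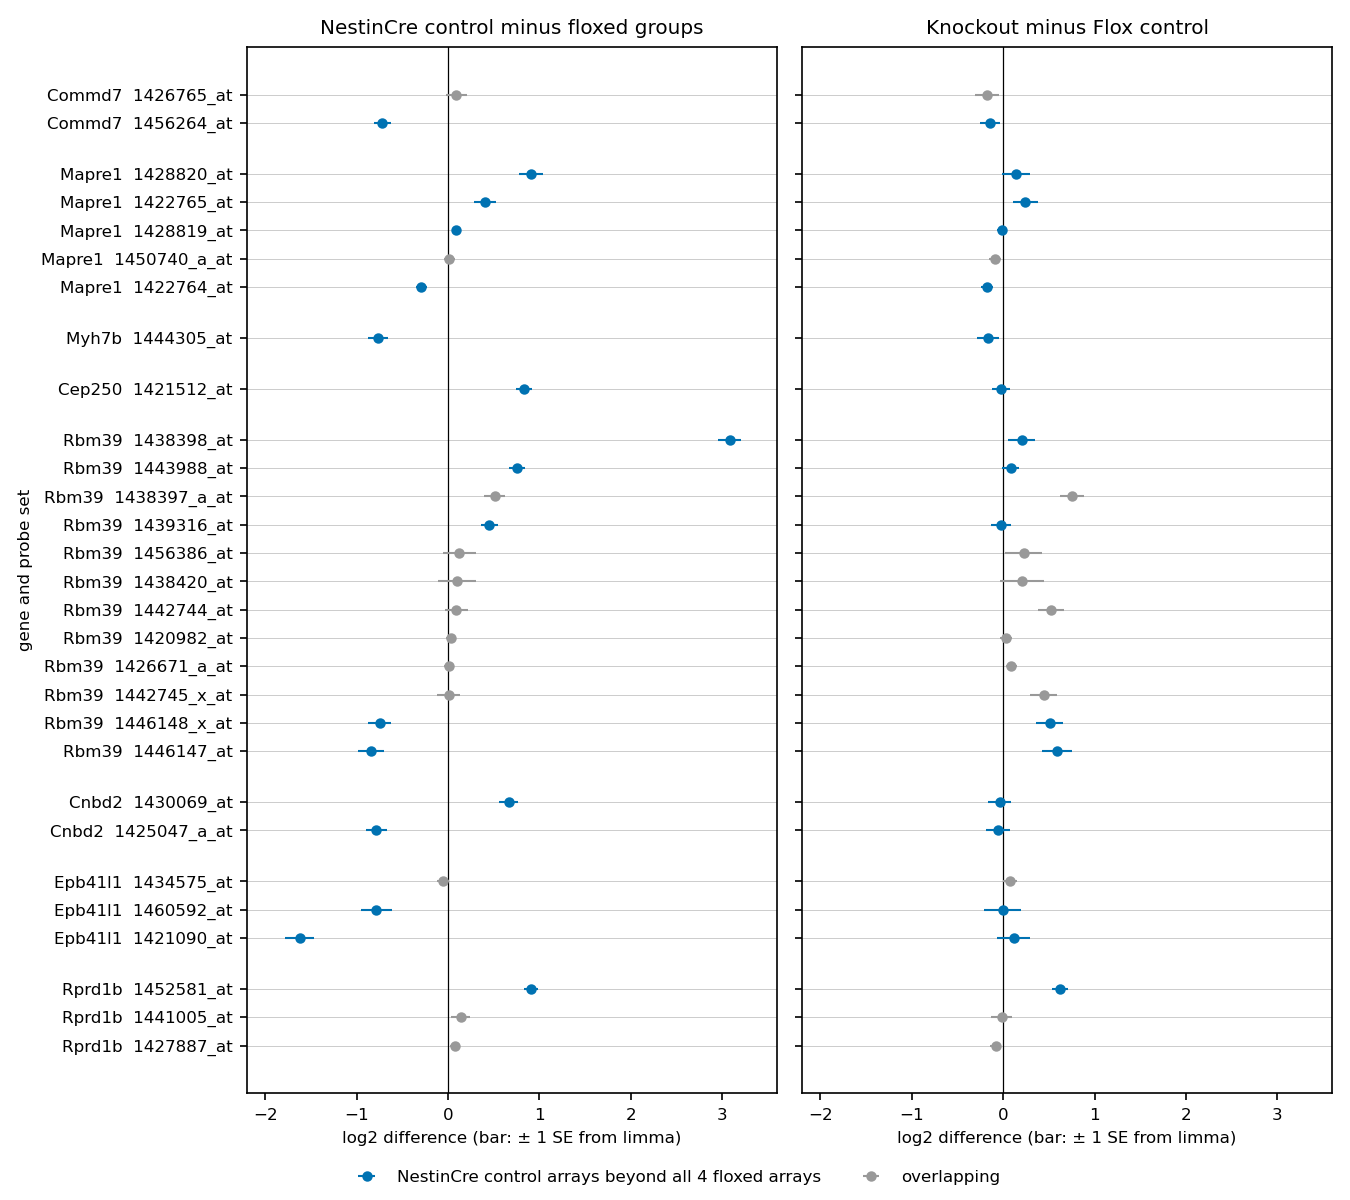
Log2 differences with 1 SE from limma for the 29 probe sets, for NestinCre control minus the floxed groups (left) and knockout minus Flox control (right), on the same scale. Blue points are the 17 probe sets whose NestinCre control arrays lie beyond all 4 floxed arrays and grey points the 12 that overlap. In the right panel none passes the adjusted test, and the largest differences belong to Rbm39 and Rprd1b.

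Disagreement within a gene was set against all genes. Over the 9010 genes with at least 2 probe sets, the highest and lowest differences of a gene were 0.12 apart in the median and 0.65 at the 99th percentile. They were 3.93 apart in Rbm39, 1.57 in Epb41l1, 1.45 in Cnbd2, 1.20 in Mapre1, 0.84 in Rprd1b and 0.81 in Commd7. No gene had a wider range than Rbm39, and 27 of the 9010 exceeded 1, among them 4 of the 8 genes. Many probe sets widen a range. Only 5 genes, Rbm39 among them, had at least 10 probe sets, and the widest range of the others was 0.50. So few genes, not chosen for a large difference, cannot show how much the number of probe sets matters. Rbm39, Mapre1 and Cnbd2 had non-overlapping probe sets in both directions, as had 55 genes in all (0.610% of 9010). Since the genes were chosen for a large difference in 1 probe set, a wide range is partly fixed by the choice. Pofut1 was not chosen so, and its 3 probe sets were 0.05 apart.

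Probe sets designed from the same source sequence did not always agree either. Among 5210 such pairs of other genes the differences lay 0.07 apart in the median and 0.41 at the 99th percentile. In Rbm39, 1438398_at shares its source with 1438397_a_at and 1456386_at and lay 2.57 and 2.96 from them. In Rprd1b, 1452581_at lay 0.84 from 1427887_at, and in Mapre1, 1428820_at lay 0.82 from 1428819_at and 1422765_at 0.70 from 1422764_at. The Rbm39 pair 1446147_at and 1446148_x_at lay only 0.10 apart. The remaining pairs also lay within the 0.41 of other genes. They were Rbm39 1438397_a_at with 1456386_at (0.39) and Mapre1 1450740_a_at with 1422765_at (0.39) and with 1422764_at (0.31). The genes were chosen for a large difference in a probe set, so a wide distance from that probe set is partly fixed by the choice. In 4 of the 6 genes with several probe sets the set with the strongest signal overlapped, so a table that keeps the brightest probe set per gene would not show the separation for Rbm39, Epb41l1, Mapre1 or Rprd1b.

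**Figure D3:**
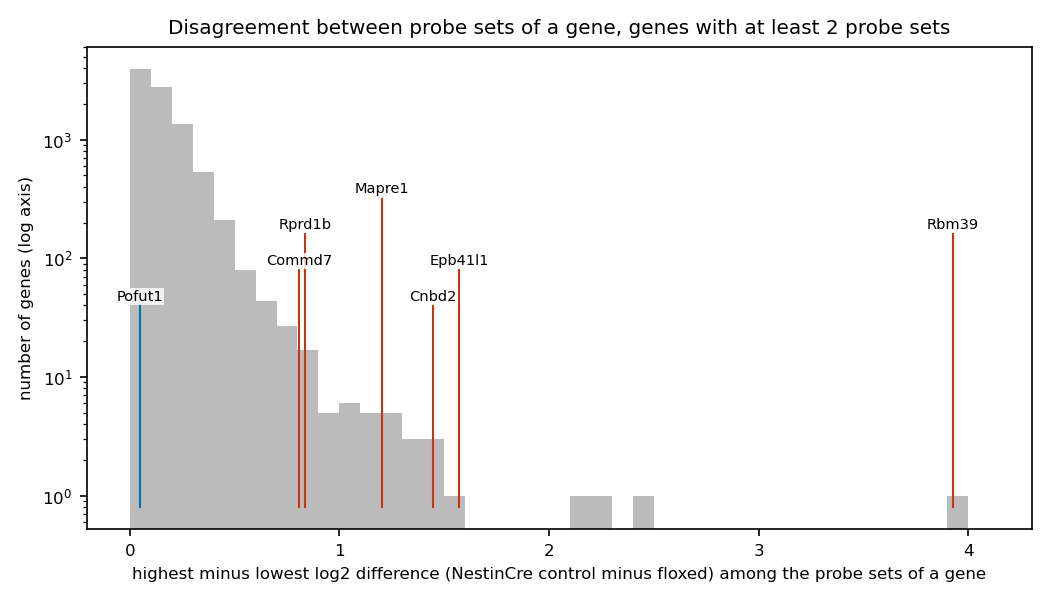
Number of genes (log axis) by the range of their probe sets' log2 differences, NestinCre control minus floxed groups, for 9010 genes with at least 2 probe sets. Lines mark Pofut1 (blue, 0.05) and the 6 of the 8 genes that have several probe sets (red), with Rbm39 at 3.93 the widest, and the height of a line carries no value.

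Knockout and Flox control share the floxed copies and differ in Cre, and their difference was not used to choose the genes. Of the 29 probe sets 0 passed limma's test over all 45037 probe sets, where 2 passed (0.00444%; 0 when any 1 array was left out), and the lowest adjusted p among the 29 was 0.128. At an unadjusted p under 0.05 there were 7 of the 29 (24.1%) against 15.9% of all probe sets, a share near the background. The median absolute difference was 0.14 for the 29 and 0.10 for all probe sets.

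For the probe sets with the largest gaps to NestinCre control, knockout and Flox control lay close. A large gap favours probe sets whose floxed arrays lie together, so this closeness is partly fixed by the choice. In Rbm39 1438398_at knockout minus Flox control was 0.20 (SE 0.15, 95% interval -0.18 to 0.59, limma adjusted p = 0.578). In Epb41l1 1421090_at it was 0.11 (95% interval -0.34 to 0.57, limma adjusted p = 0.824) and in Mapre1 1428820_at 0.14 (-0.26 to 0.53, limma adjusted p = 0.735). These intervals do not reach the size of the difference from NestinCre control in the same probe set. Other probe sets with a large mean difference from NestinCre control did not show this closeness. Rprd1b 1452581_at differed by 0.91 and Rbm39 1446147_at by -0.85, while knockout minus Flox control was 0.63 and 0.59.

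The 7 probe sets with the smallest p for knockout against Flox control were 5 of Rbm39, 1 of Rprd1b and 1 of Mapre1. Rprd1b 1452581_at was higher in knockout by 0.63 (SE 0.09, limma adjusted p = 0.128). Rbm39 1438397_a_at was higher by 0.75 (SE 0.13, limma adjusted p = 0.142), 1446147_at by 0.59 (SE 0.16), 1442744_at by 0.52 (SE 0.14), 1446148_x_at by 0.51 (SE 0.15) and 1442745_x_at by 0.44 (SE 0.15). In each of these both knockout arrays lay above both Flox control arrays. They were picked by p on this same difference, so this adds no support, and its share over all probe sets was not counted. Of the 12 Rbm39 probe sets 11 were above 0, where the median over all probe sets was -0.01. Mapre1 1422764_at was lower by 0.18 (SE 0.07). None passed over all probe sets, and the probe sets of a gene are not independent. Flox control arrays also had a higher summed signal of 7 pituitary markers, at 1046 and 2278 in intensity against 595 to 759 on the other 4 arrays. Only 1 of the 7 was above the median of all probe sets on every array, and the markers were not compared singly. The part of pituitary RNA in these values was not tested.

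The 8 genes were placed among their neighbours by RefSeq gene order on chromosome 2, counted in all genes of the table from Pofut1. Commd7 lies 8 places after Pofut1, Mapre1 12, Myh7b 76, Cep250 89, Rbm39 101, Cnbd2 104, Epb41l1 111 and Rprd1b 158. With the 8 genes left out, 43 of 272 probe sets within 150 places did not overlap (15.8%), 20 with NestinCre control higher and 23 lower. On the side of the 8 genes it was 30 of 149 (20.1%), and on the other side 13 of 123 (10.6%). On the rest of chromosome 2 it was 203 of 2502 (8.11%) and on other chromosomes 2878 of 31935 (9.01%). Within 50 places before Pofut1, 10 of 51 did not overlap (19.6%). Further before it, this held for 2 of 43 at 51 to 100 places and 1 of 29 at 101 to 150. After Pofut1, with the 8 genes counted, the same distances gave 8 of 50, 19 of 61 and 19 of 64. The nearest 50 places thus did not show a lower share before Pofut1. These shares are descriptive, since nearby genes are not independent. Fewer arrays make separation easier, and the 43 became 100 without NestinCre control replicate 1 and 106 without replicate 2, against 28.6% and 34.3% of all probe sets. Leaving out the first Flox control array gave 67, against 15.6%, and leaving out the first knockout array gave 87, against 23.5%.

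Large gaps were rarer. Over 0.3 on the log2 scale, a size chosen after the values were seen, the gap was reached by 11 of the 29 probe sets and by 0.195% of all. The choice of the genes fixes this contrast, since the leading gap of each of the 8 was 0.44 or more and the neighbours leave these genes out, so nothing is read from it. It was reached by 2 of 272 neighbours, Zcchc3 and the dim non-coding RNA Norad, by 0 of 2502 on the rest of chromosome 2 and by 47 of 31935 on other chromosomes. Zcchc3, a zinc finger protein before Pofut1, read 8.89 and 8.87 in NestinCre control against 8.07 to 8.48 on the floxed arrays. Only 1 of its 2 probe sets did not overlap.

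**Figure D4:**
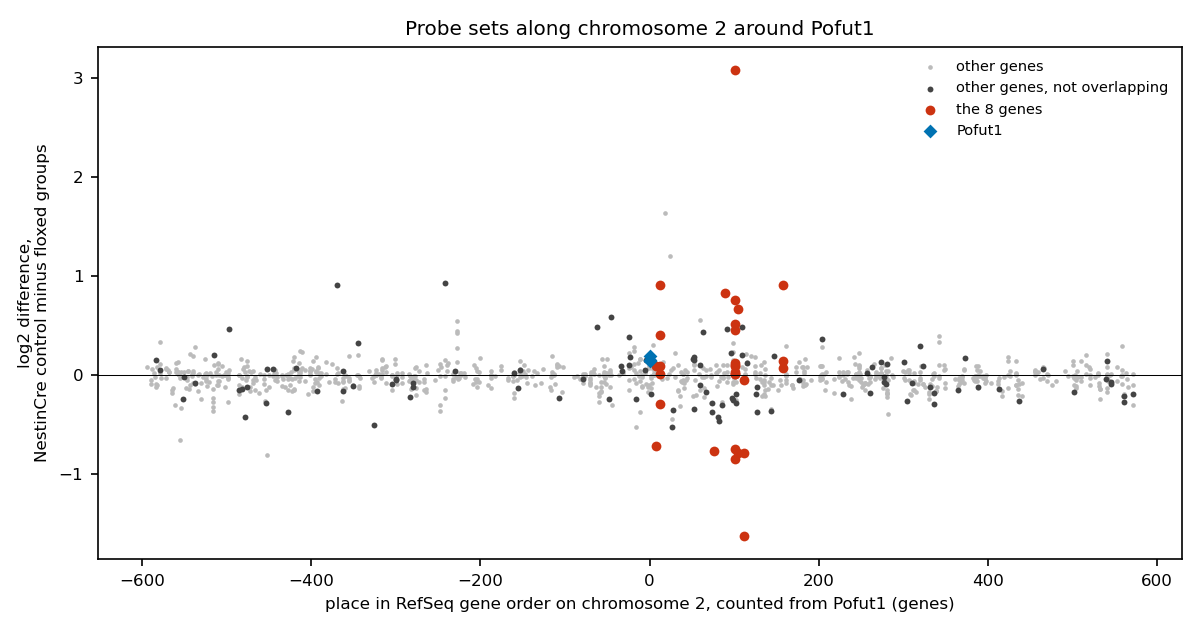
Log2 difference, NestinCre control minus floxed groups (y axis), of probe sets up to 600 places from Pofut1 in RefSeq gene order on chromosome 2 (x axis, in genes, not in bases). The 8 genes (red) spread above and below 0 within 158 places after Pofut1 (blue). Dark points are other probe sets that do not overlap, and light points are those that do.

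The next neighbours by gap were smaller. Slc52a3, a riboflavin transporter, differed by 0.48 (SE 0.11) and Ergic3, a protein of the early secretory pathway, by 0.46 (SE 0.09), with NestinCre control higher. NestinCre control was lower for the glutathione synthetase Gss (-0.37, SE 0.07), Cdk5rap1 (-0.36, SE 0.06), the translation initiation subunit Eif2s2 (-0.34, SE 0.06), the cysteine desulfurase Nfs1 (-0.25, SE 0.08) and the copine Cpne1 (-0.23, SE 0.04). The share of a gene's probe sets that did not overlap varied, with both of 2 for Gss, 3 of 6 for Eif2s2, 1 of 3 for Nfs1 and 1 of 4 for Ergic3. These counts take both directions together, so they do not show whether the probe sets pointed the same way.

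With the 8 genes left out, most of the probe sets named for a similar pattern on the 6 arrays lay on other chromosomes. So do most probe sets, as chromosome 2 holds 2806 of the 34741 with a place, so nothing is read from this. By gap, the 5 most alike with NestinCre control higher were of Tial1, Flt1, Zfp945, Trim30d and Zcchc3. The floxed arrays scattered widely for Tial1, an RNA-binding protein, at 8.87 to 11.23 against 11.84 and 11.80 in NestinCre control. They also scattered for Flt1 (6.61 to 7.85), Zfp945 (5.70 to 7.69) and Trim30d (5.90 to 7.35). In this direction 1 of 5 probe sets did not overlap for Tial1, 1 of 4 for Flt1, 1 of 3 for Zfp945 and 1 of 2 for Trim30d. The 5 most alike with NestinCre control lower were of Gdpd3, Ro60, Cfap54 and, with 2 probe sets, Wdfy1. Gdpd3, a lysophospholipase D on chromosome 7, read 7.20 and 6.91 in NestinCre control against 9.72 to 10.69, and its gap of 2.52 was close to the 2.70 of Rbm39 1438398_at. Ro60, an RNA-binding autoantigen on chromosome 1, read 7.13 and 7.62 against 9.25 to 9.59 in 1 of its 4 probe sets. Probe sets agreed better in other genes of this direction, with 2 of 2 not overlapping for Cfap54 and 3 of 5 for Wdfy1. Gdpd3 had 1 probe set.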

How the data were processed

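Total RNA of 6 brain samples was amplified, labelled with biotin and hybridised to 1 array each, per the labels' protocols. The deposited table holds a linear intensity for each probe set on each array. The submitters' processing notes name GCOS and RMA without version or order, and any other step is not stated in the sources used here. Groups and replicate numbers came from the sample titles. After 64 control probe sets were left out, log2 of the intensity was taken for 45037 probe sets, and no pseudocount was added. Gene names came from the platform annotation, where 34945 probe sets had 1 symbol, 932 several and 9160 none. Of the first, 34741 matched RefSeq genes of GRCm38.p6, used for gene order only, since the build behind the files is not stated.

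Group means were fitted with limma 3.58.1 in R 4.3.3 (lmFit, eBayes without trend) over all 6 arrays, which share 1 estimate of the spread. There were 3 residual degrees of freedom, or 4.94 with the prior. Knockout minus Flox control was tested with Benjamini-Hochberg adjustment over all probe sets at a threshold of 0.05. SEs belong to the log2 differences of that fit, and intervals are at the 95% level from the moderated fit. The step was tested on simulated data. The number of arrays limits the precision.

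The 8 genes, the lists and the tests were chosen with earlier results of these data known. All member probe sets are named. Neighbours were named as the up to 8 genes, and alike patterns as the 5 probe sets per direction, with the largest gap between NestinCre control and the nearest floxed array among those whose brighter side exceeded the median of 7.34. Both lists left out the 8 genes described here. Replicate numbers showed no pairing of the arrays, as deviations of same-numbered arrays correlated at 0.19, -0.31 and -0.24 between the 3 pairs of groups. With so few arrays this cannot exclude a pairing. Alternatives were other normalizations, a filter on dim probe sets, a pseudocount, trend and robust fits, the compared groups alone, a replicate block, sex, and each array left out.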

Additional observations from a re-analysis of the deposited data

How the results depend on the processing

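Of the 29 probe sets, 17 did not overlap, and under every alternative run for this count it was between 12 (of the 24 left by the filter on dim probe sets) and 20. Leaving out an array makes separation easier. Without each array in turn the count was 17 to 20, while the share over all probe sets rose to between 12.9% and 34.3%. With the female arrays alone it was 19, against 50.3% of all probe sets. No difference of a non-overlapping member probe set changed sign under the alternatives run. For most alternatives this was fixed in advance. Leaving out an array or adding a pseudocount keeps the arrays apart. The filter and the block, trend and robust fits keep the same difference. Among neighbours, 43 did not overlap. This became 23 of 136 with the filter on dim probe sets, because fewer were tested, 152 with the female arrays alone, and 54 to 106 without each array in turn. Counting places over coding genes only, an alternative chosen after seeing the data, gave 59 of 494.

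For knockout against Flox control, 0 of the 29 probe sets passed under each alternative run, with a lowest adjusted p of 0.052 to 0.347. Over all probe sets the 2 calls by limma became 0 with repeated quantile normalization, 0 with log2 of the value plus 16, 0 with sex as a covariate, 0 with the compared groups alone and 0 when any array was left out. They became 9 with median centring, 23 with the filter on dim probe sets, 162 with an intensity trend and 325 with trend and robust fitting, and the cause was not tested. With the replicate number as a block 0 passed, with 6334 at an unadjusted p under 0.05 in place of 7179. The arrays have 1 value per probe set and no background measure, so how far dim signals exceed background is unknown.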
